A study of Homo sapiens with 9 samples.

Results

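The genes of the AP-1 subunits FOS, FOSB, FOSL1, FOSL2, JUN, JUNB and JUND were followed together with EGR1, IER3 and MYC in T47D cells, an ER+ line from human breast cancer. The 10 genes were taken by name, as genes known to answer growth factors and stress, and all 10 were found among the 27635 gene symbols of the expression table. IER3 occupied 3 rows of that table, which were summed. RNA of 9 cultures was measured in bulk, in 3 groups of 3 libraries. In contact culture (CC), T47D cells were seeded as 10% of the cells with 90% HS5 cells, an MSC line from human bone marrow stroma, and the cancer cells were then recovered on EpCAM beads. In conditioned medium (CMed), T47D cells alone received medium from HS5 cells, and in monoculture (MC) T47D cells grew alone. According to the labels, cells of all 3 groups spent 24 hours in full medium and were harvested 48 hours after their medium was replaced by low-glucose medium without phenol red, which held 1% FBS and 10 nM estradiol, so the controls carried estradiol as well. Contact and bead recovery cannot be told apart, since the labels describe the beads for co-cultures only. MCF7 cells, HS27a cells and MSCs grown alone were not analysed here.

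AP-1 is a transcription factor made of pairs of basic leucine zipper proteins. A JUN protein pairs with a FOS protein or with another JUN protein, whereas FOS proteins need a JUN partner, and the mix of subunits sets which sites are bound and how strongly. Most of these genes, with the zinc finger factor gene EGR1, the survival gene IER3 and the growth regulator gene MYC, are transcribed within minutes of a signal from a receptor and are shut off again soon after, so a harvest at a single late time shows the level that remained and not the first wave. In breast cancer cells AP-1 is known to act beside the estrogen receptor, and MYC and FOS are known estrogen-responsive genes.

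Levels are given as TPM, transcript counts scaled for transcript length and library size, which can be set side by side between genes. JUND and JUN were the most abundant members, with means over the 9 libraries of 35.4 and 35.1 TPM, and both lay between 16.4 and 54.6 TPM in every library. The next members, MYC (4.82 TPM), FOSL2 (3.67 TPM), IER3 (3.19 TPM), FOS (1.63 TPM) and JUNB (1.30 TPM), overlapped each other across the libraries. EGR1 averaged 0.727 TPM over the 9 libraries, and FOSL1 and FOSB were near the detection limit. FOSB reached 0.5 TPM in 2 libraries only, under the minimum of 3 libraries set for testing, and so 9 of the 10 members were tested.

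Elements known to connect early genes to signals were looked for in their promoters. RefSeq windows on GRCh38.p14, of 250 bases before to 50 bases after the start, were matched for 7 of the 10 members (FOSL1, IER3 and MYC had none in the table). Windows were searched on both strands for the AP-1 site TGACTCA, its variant of 8 letters TGACATCA, the cyclic AMP response element TGACGTCA, the GAS element TTCNNNGAA and the CArG box, which is the site of the factor SRF. The 3 stretches below are from JUN and JUND, the most abundant members, and from EGR1, a classic target of SRF. Each stretch is written 5′ to 3′ on the strand of its gene, and capitals mark the element. The positions are chr1:58784096-58784125 on the minus strand for JUN, chr19:18281804-18281833 on the minus strand for JUND and chr5:138465368-138465411 on the plus strand for EGR1.
JUN: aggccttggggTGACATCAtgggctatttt
JUND: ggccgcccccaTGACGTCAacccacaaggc
EGR1: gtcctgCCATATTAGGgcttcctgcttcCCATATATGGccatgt
The variant AP-1 site of JUN began 67 bases before the RefSeq start, and the same letters occurred in 2.61% of 35116 promoter windows. The element of JUND began 200 bases before the start and was found in 1.85% of windows. EGR1 had a pair of CArG boxes, 105 and 83 bases before the start, and a CArG box was found in 1.29% of windows. The AP-1 site TGACTCA, present in 4.95% of windows, was matched after the start of FOSL2, and the GAS element, present in 7.66%, was matched 228 bases before the start of EGR1. The windows of FOS, FOSB and JUNB held none of these letters. Sequence more than 250 bases before the start was not searched, so elements further upstream of these genes would have been missed. A match describes the sequence only and was not tested as a binding site.

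The monoculture libraries differed from each other on these genes. Monoculture replicate 2 was below both other monocultures in 7 of the 10 members and above both in 3 (JUND, FOSL1 and FOSL2), and in 8 of the 9 members detected in the others its gap to the nearer of the other monocultures was larger than the spread between those libraries. Over all genes tested, the Pearson correlation of this library with the other monocultures was 0.918 and 0.924, against 0.944 to 0.967 for the other pairs of replicates. It is kept below, and values without it are given as well. Since this library was singled out by its values in these same data, calls made without it are a description and not an independent test. Depth, read from the steps between low values and expressed relative to monoculture replicate 1, was 1.14 to 2.10 in contact culture, 1.11 to 1.39 in conditioned medium and 0.763 to 1.13 in monoculture. Mitochondrial and ribosomal RNA took 23.4 to 26.1% of the TPM in contact culture, 21.5 to 22.4% in conditioned medium and 16.7 to 20.5% in monoculture, and its part in the differences below was not tested beyond rescaling without it. EPCAM, the luminal marker used for the recovery, was at 137 to 160 TPM in contact culture, against 127 to 145 in conditioned medium and 168 to 206 in monoculture. Of 18 luminal markers tested, limma called TFF1 and MUC1 higher and GATA3 lower in contact culture than in monoculture, and TFF1 higher in conditioned medium than in monoculture. Of all tested genes, 4.99% and 1.38% were called in these comparisons. The MUC1 call was lost in 10 of 19 alternatives (adjusted p up to 0.133 from limma). TFF1 had 0.658 TPM in monoculture replicate 1 and was listed at 0 in replicates 2 and 3, so it was in the test through its level in the other groups. GATA3, a luminal transcription factor, was at 508 ± 49.7 TPM in contact culture, against 710 ± 49.1 in conditioned medium and 967 ± 101 in monoculture (SD, n = 3 each). The summed level of 25 stromal markers was 57.9 to 74.9 TPM in contact culture, against 34.5 to 42.3 in conditioned medium and 48.3 to 54.6 in monoculture. Of the 10 stromal markers tested, VIM and FN1 rose in contact culture against monoculture and none fell, and CAV1 was in the test only through its level in contact culture. The FN1 call was lost without contact culture replicates 2 or 3 or monoculture replicate 1. It was also lost with only these groups in the fit and with the replicate number as a block. VIM, the intermediate filament of mesenchymal cells, was at 6.28 to 11.7 TPM in contact culture, against 0.343 to 0.914 in conditioned medium and 0.135 to 1.25 in monoculture. CAV1 was at 1.89 to 2.98 TPM in contact culture, within 0 to 0.0756 TPM in conditioned medium and listed at 0 in every monoculture, and the collagen gene COL1A2, which was too low to be tested, was at 0.129 to 0.799, 0 to 0.0359 and 0 to 0.174 TPM in contact culture, conditioned medium and monoculture. The collagen gene COL1A1 did not follow them, with means of 3.37, 3.71 and 4.12 TPM in contact culture, conditioned medium and monoculture (adjusted p = 0.795 from limma for contact culture against monoculture). The part of HS5 RNA in the contact culture values of the early genes was not tested. In bulk RNA, a change in the number of expressing cells and a change in RNA per cell cannot be told apart.

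**Figure D1:**
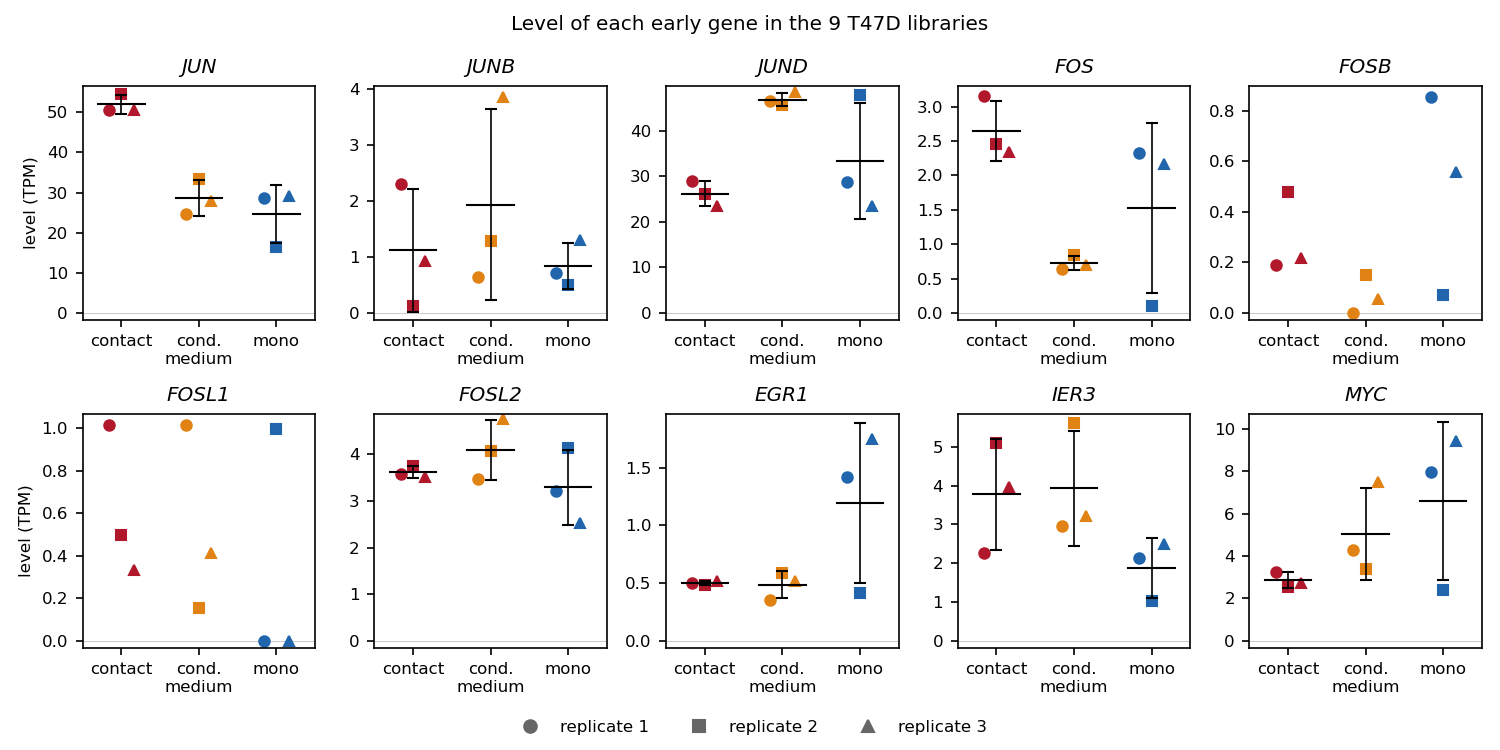
Level in TPM of each of the 10 early genes by culture, with contact culture left, conditioned medium in the middle and monoculture right. Points are libraries, shapes give the replicate number and bars the mean and SD of 3 libraries (none for FOSB and FOSL1, listed at 0 in some libraries), and JUN sits between 50.7 and 54.6 TPM in contact culture, above all other libraries, and monoculture replicate 2 (blue square) stands apart in most panels.

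JUN was the only early gene that limma called in contact culture against monoculture. That call was lost in 6 of the 9 fits that each left out a library. JUN encodes the founding JUN subunit, the strongest activator among them, and is a gene of a single exon (ENSG00000177606.6, GENCODE 29 on GRCh38, chromosome 1 from 58780788 to 58784327, minus strand). It had 50.7, 54.6 and 50.7 TPM in contact culture, against 24.6, 33.3 and 27.9 in conditioned medium and 28.7, 16.4 and 29.1 in monoculture. Every contact culture library lay above every other library, while conditioned medium and monoculture overlapped. Means were 52.0 ± 2.30, 28.6 ± 4.42 and 24.7 ± 7.25 TPM in contact culture, conditioned medium and monoculture (SD, n = 3 each).

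The fits below were made with limma on log2(TPM + 1) over all 16696 genes with enough signal, with all 9 libraries sharing an estimate of the spread, and p-values were adjusted over all of these genes by the Benjamini-Hochberg method. Differences are log2 fold changes on that scale, which understates changes of low genes, and a gene is counted as changed at an adjusted p under 0.05. JUN rose in contact culture against monoculture by 1.09 (SE 0.23, 95% interval 0.57 to 1.60, or 2.12-fold, adjusted p = 0.0298 from limma). It was the only call among the 9 tested members, where 4.99% of all tested genes were called (2.15% higher and 2.84% lower). It was also the only member with an unadjusted p under 0.05, which 3386 of the 16696 genes had. The stromal markers VIM, CAV1 and FN1 were likewise higher in contact culture, and their part in the JUN difference was not tested. Over all genes the calls of this comparison split into 359 higher and 474 lower, but into 440 higher and 301 lower after relative log expression scaling of the libraries.

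The size of the JUN difference was steady, at 0.82 to 1.22 over the 9 fits that each left out a library, but its call was not. It was kept without monoculture replicate 2 (log2 fold change 0.82, adjusted p = 0.0156 from limma), monoculture replicate 3 (0.0495) or conditioned medium replicate 2 (0.0440). It was lost without contact culture replicate 1 (0.0794), 2 (0.0787) or 3 (0.112), conditioned medium replicate 1 (0.0512) or 3 (0.0518), or monoculture replicate 1 (0.0537). It was also lost with no filter on low values (0.0580), when only these 2 groups entered the fit (0.0843) and with the replicate number as a block (0.0722).

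Against conditioned medium, JUN was 0.85 higher in contact culture (95% interval 0.33 to 1.37), which did not pass the test (adjusted p = 0.173 from limma). Without monoculture replicate 2, whose only part in this difference is the shared estimate of the spread, the same 0.85 had an adjusted p of 0.0307 from limma. In conditioned medium against monoculture the JUN difference was 0.23 (95% interval −0.28 to 0.75, adjusted p = 0.667 from limma), and without monoculture replicate 2 it was −0.03. The genes whose pattern over the 9 libraries was most like that of JUN, among 12677 genes compared, were HMGB3 (Pearson r = 0.989), a chromatin protein of the high mobility group, and ITGA6 (0.987), an integrin subunit. These correlations describe libraries that differ by culture and in which monoculture replicate 2 is the lowest for JUN, HMGB3 and ITGA6.

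JUND had the opposite order of levels to JUN in the cultures exposed to HS5 cells. JUND encodes the JUN subunit that resting cells keep in store and that is known in several cell types to slow growth (ENSG00000130522.5, chromosome 19 from 18279760 to 18281622, minus strand, a single exon). It had 28.9, 26.0 and 23.4 TPM in contact culture, against 46.4, 45.7 and 48.4 in conditioned medium and 28.8, 47.8 and 23.5 in monoculture. All contact culture libraries lay below all conditioned medium libraries, and monoculture replicate 2 lay with conditioned medium while the other monocultures lay with contact culture. The difference of contact culture from conditioned medium was −0.82 (95% interval −1.36 to −0.28, adjusted p = 0.203 from limma), and without monoculture replicate 2 the same value passed the test (adjusted p = 0.0312). Conditioned medium was 0.54 above monoculture (95% interval 0.00 to 1.08, adjusted p = 0.317 from limma), and 0.82 without monoculture replicate 2, where it passed (0.0207). Contact culture differed from monoculture by −0.28 (95% interval −0.82 to 0.25, adjusted p = 0.565 from limma), and by 0.00 without that library.

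JUNB encodes the third JUN subunit, a weaker activator that is often induced with FOS (ENSG00000171223.5, chromosome 19 from 12791496 to 12793315, plus strand, a single exon). It had 2.31, 0.125 and 0.931 TPM in contact culture, against 0.642, 1.30 and 3.87 in conditioned medium and 0.714, 0.504 and 1.31 in monoculture. The groups overlapped throughout and replicates of a group differed by several fold. Its differences were 0.09 for contact culture against monoculture, 0.54 for conditioned medium against monoculture and −0.45 for contact culture against conditioned medium (95% intervals −0.99 to 1.17, −0.54 to 1.62 and −1.53 to 0.63, adjusted p from limma 0.944, 0.629 and 0.770). The differences from monoculture without its replicate 2 were −0.04 in contact culture and 0.41 in conditioned medium. HOOK2 overlaps JUNB on the opposite strand, and whether reads were counted by strand is not given in the sources used here.

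The mix of JUN subunits followed JUN and JUND. Of the summed TPM of the 3 genes, JUN took 61.9, 67.6 and 67.5% in contact culture, 34.3, 41.5 and 34.8% in conditioned medium and 49.4, 25.3 and 54.0% in monoculture. JUN was thus the main JUN transcript in every contact culture library and JUND in every conditioned medium library. JUND took 31.2 to 35.3% in contact culture, 56.9 to 64.8% in conditioned medium and 43.6 to 73.9% in monoculture. The ratio of JUN to JUND was 2.01 ± 0.222, 0.612 ± 0.105 and 0.860 ± 0.464 in contact culture, conditioned medium and monoculture (SD, n = 3 each), with no overlap between contact culture and either other group. Both HS5 exposures had more JUN family RNA in sum than monoculture, with 75.0 to 81.9 TPM for contact culture and 71.6 to 80.3 TPM for conditioned medium, against 53.9 to 64.7 TPM in monoculture. These shares and sums were not tested, since the genes were chosen with results known.

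**Figure D2:**
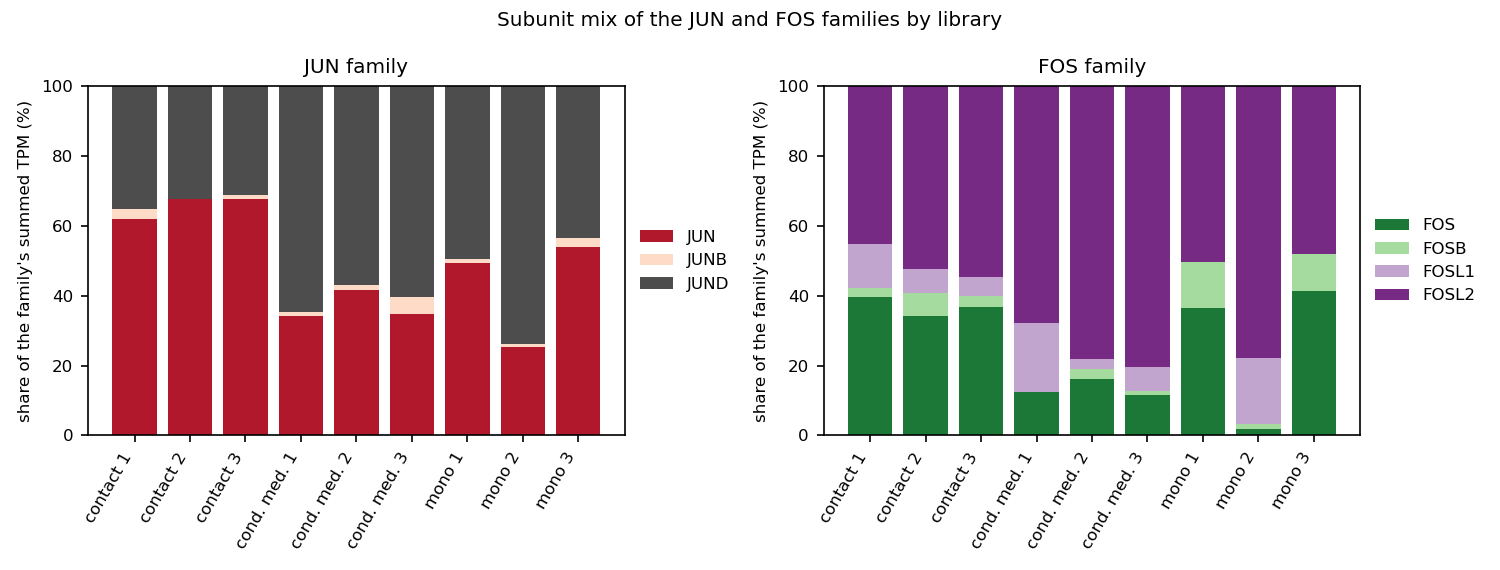
Share in percent of the summed TPM of the JUN family (left panel) and the FOS family (right panel) taken by each gene, with a bar for each of the 9 libraries in the order contact culture, conditioned medium, monoculture. JUN takes 61.9 to 67.6% in contact culture, against 34.3 to 41.5% in conditioned medium, and FOS takes 11.7 to 16.1% in conditioned medium and 1.96% in monoculture replicate 2.

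FOS, the partner that gives AP-1 its fast and short response, was lowest in conditioned medium and in monoculture replicate 2. FOS (ENSG00000170345.9, chromosome 14 from 75278774 to 75282230, plus strand, 4 exons) had 3.15, 2.45 and 2.34 TPM in contact culture, against 0.638, 0.840 and 0.692 in conditioned medium and 2.32, 0.104 and 2.16 in monoculture. Contact culture lay above both other groups in every library, although monoculture replicates 1 and 3 came close to it. The difference of contact culture from conditioned medium was 1.08 (95% interval 0.19 to 1.97, or 2.11-fold, adjusted p = 0.314 from limma), and without monoculture replicate 2 the same value passed the test (0.0387). Contact culture was 0.68 above monoculture (95% interval −0.21 to 1.57, adjusted p = 0.379 from limma), and 0.16 above it without that library. Conditioned medium differed from monoculture by −0.39 (95% interval −1.28 to 0.49, adjusted p = 0.676 from limma), and by −0.91 without monoculture replicate 2, which passed (0.0422).

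FOSL2, the Fra-2 subunit and a more stable FOS protein, was the FOS family transcript of highest level in all 9 libraries. FOSL2 (ENSG00000075426.11, chromosome 2 from 28392448 to 28417312, plus strand, 4 exons) had 3.58, 3.76 and 3.51 TPM in contact culture, against 3.48, 4.07 and 4.76 in conditioned medium and 3.21, 4.14 and 2.53 in monoculture. The groups overlapped, and the differences were 0.12 for contact culture against monoculture (95% interval −0.34 to 0.59), 0.26 for conditioned medium against monoculture (−0.20 to 0.72) and −0.14 for contact culture against conditioned medium (−0.60 to 0.33). Leaving out monoculture replicate 2, the differences from monoculture were 0.26 in contact culture and 0.40 in conditioned medium, and neither passed the test (adjusted p = 0.441 and 0.269 from limma). FLJ31356 overlaps FOSL2 on the opposite strand and AC104695.3 on the same strand, so its level may hold reads of these.

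FOSL1, the Fra-1 subunit of invasive cells, and FOSB, a subunit with FOS-like activity, were barely detected. FOSL1 (ENSG00000175592.8, chromosome 11 from 65892049 to 65900573, minus strand, 4 exons) had 1.01, 0.497 and 0.335 TPM in contact culture, against 1.02, 0.155 and 0.414 in conditioned medium and 0.997 in monoculture replicate 2, and was listed at 0 in monoculture replicates 1 and 3. It passed the filter on 1 library of each group, with contact culture replicate 2 just under the minimum of 0.5 TPM, and limma called it in none of the 3 comparisons (adjusted p = 0.645 for contact culture against monoculture, 0.785 for conditioned medium against monoculture and 0.946 for contact culture against conditioned medium), nor without monoculture replicate 2 (0.209, 0.312 and 0.902). FOSB (ENSG00000125740.13, chromosome 19 from 45467995 to 45475179, plus strand, 4 exons) had 0.190, 0.479 and 0.218 TPM in contact culture, with 0.15 and 0.0539 TPM in conditioned medium replicates 2 and 3, where replicate 1 was listed at 0, and 0.856, 0.0706 and 0.560 TPM in monoculture. ERCC1 overlaps FOSB on the opposite strand.

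The mix of FOS family genes separated conditioned medium from contact culture. Of the summed TPM of the 4 genes, FOS took 39.7, 34.1 and 36.6% in contact culture, 12.4, 16.1 and 11.7% in conditioned medium and 36.3, 1.96 and 41.2% in monoculture. FOSL2 took 45.1 to 54.8% in contact culture, 67.7 to 80.4% in conditioned medium and 48.1 to 77.9% in monoculture. Monoculture replicate 2 thus had a lower FOS share than any other library, and the other monocultures had FOS shares close to those of contact culture, with no FOSL1. The FOS family summed to 6.41 to 7.93 TPM in contact culture, against 5.13 to 5.92 in conditioned medium and 5.25 to 6.38 in monoculture, far under the JUN family in each library.

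EGR1, the zinc finger factor that SRF switches on, showed no call. EGR1 (ENSG00000120738.7, chromosome 5 from 138465490 to 138469315, plus strand, 2 exons) had 0.501, 0.484 and 0.513 TPM in contact culture, against 0.354, 0.585 and 0.519 in conditioned medium and 1.42, 0.417 and 1.75 in monoculture. Monoculture replicates 1 and 3 lay above all other libraries and monoculture replicate 2 lay among them. The differences from monoculture were −0.49 in contact culture (95% interval −1.10 to 0.11, adjusted p = 0.350 from limma) and −0.51 in conditioned medium (−1.12 to 0.10, 0.401). Without monoculture replicate 2 they were −0.78 and −0.80 and stayed above the threshold (0.0508 and 0.0635). Contact culture and conditioned medium differed by 0.02 (95% interval −0.59 to 0.62).

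IER3, which encodes a small protein that protects cells from death during stress, had higher means in both HS5 exposures. IER3 (ENSG00000137331.11, chromosome 6 from 30743199 to 30744554, minus strand, 2 exons) had 2.27, 5.10 and 3.96 TPM in contact culture, against 2.95, 5.63 and 3.21 in conditioned medium and 2.14, 1.01 and 2.48 in monoculture. Conditioned medium lay above monoculture in every library, and contact culture overlapped monoculture. Its differences from monoculture were 0.72 in contact culture (95% interval −0.02 to 1.46, adjusted p = 0.260 from limma) and 0.77 in conditioned medium (0.03 to 1.51, 0.299), and 0.48 and 0.53 without monoculture replicate 2 (0.399 and 0.381). Contact culture and conditioned medium differed by −0.05 (95% interval −0.79 to 0.69), and by 0.21 where the row with the largest mean replaced the sum. Conditioned medium replicate 2 and monoculture replicates 2 and 3 had equal values in a pair of rows of this symbol, and whether these are copies was not tested. With the largest row alone, those libraries had 2.81, 0.506 and 1.24 TPM, and contact culture no longer overlapped monoculture, from which it differed by 1.07 (adjusted p = 0.0949 from limma). IER3-AS1 overlaps IER3 on the opposite strand.

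MYC, which drives ribosome building and growth, was low in all contact culture libraries and varied widely elsewhere. MYC (ENSG00000136997.17, GENCODE 29 on GRCh38, chromosome 8 from 127735434 to 127741434, plus strand, 3 exons) had 3.26, 2.53 and 2.74 TPM in contact culture, against 4.26, 3.37 and 7.48 in conditioned medium and 7.96, 2.37 and 9.43 in monoculture. Contact culture lay below conditioned medium in every library, and below monoculture but for replicate 2. The difference of contact culture from monoculture was −0.83 (95% interval −1.77 to 0.12, adjusted p = 0.312 from limma), and −1.33 without monoculture replicate 2, where it passed the test (0.0258). Contact culture differed from conditioned medium by −0.60 (95% interval −1.54 to 0.35, adjusted p = 0.624 from limma). Conditioned medium differed from monoculture by −0.23 (−1.17 to 0.71, 0.838), and by −0.74 without monoculture replicate 2 (−1.39 to −0.08, 0.174).

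Counted over the 9 tested members, conditioned medium against monoculture gave 0 calls with limma, where 1.38% of all tested genes were called (0.707% higher and 0.677% lower, or 118 and 113 genes, but 146 and 53 after relative log expression scaling), and 2 members, IER3 and JUND, had an unadjusted p under 0.05, as had 2622 of the 16696 genes. Contact culture against conditioned medium likewise gave 0 calls with limma, where 0.371% of genes were called (0.21% higher and 0.162% lower, or 35 and 27 genes, but 40 and 19 after rescaling without mitochondrial and ribosomal RNA), and FOS, JUN and JUND had an unadjusted p under 0.05, as had 2045 of the 16696 genes. Groups did not overlap in 2 members (FOS and JUN) for contact culture against monoculture, against 24.3% of all tested genes. They did not overlap in 1 member (IER3) for conditioned medium against monoculture, against 20.9%, so these shares were close to or under those of all genes. For contact culture against conditioned medium the groups did not overlap in 4 of 9 members (FOS, JUN, JUND and MYC), against 22.3% of genes.

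Monoculture replicate 2 decided most of these counts. Without it, limma called JUN and MYC in contact culture against monoculture (10.3% of all genes were then called), FOS and JUND in conditioned medium against monoculture (6.07%), and FOS, JUN and JUND in contact culture against conditioned medium (1.25%). Members with an unadjusted p under 0.05 were then 3 (EGR1, JUN and MYC, against 4355 of all genes), 4 (EGR1, FOS, JUND and MYC, against 3793) and 4 (FOS, JUN, JUND and MYC, against 2847). Without it the calls over all genes also numbered 1727, 1013 and 208 in the 3 comparisons, against 833, 231 and 62 with all libraries. Each pair of comparisons shares a group of libraries, so their calls are not independent.

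**Figure D3:**
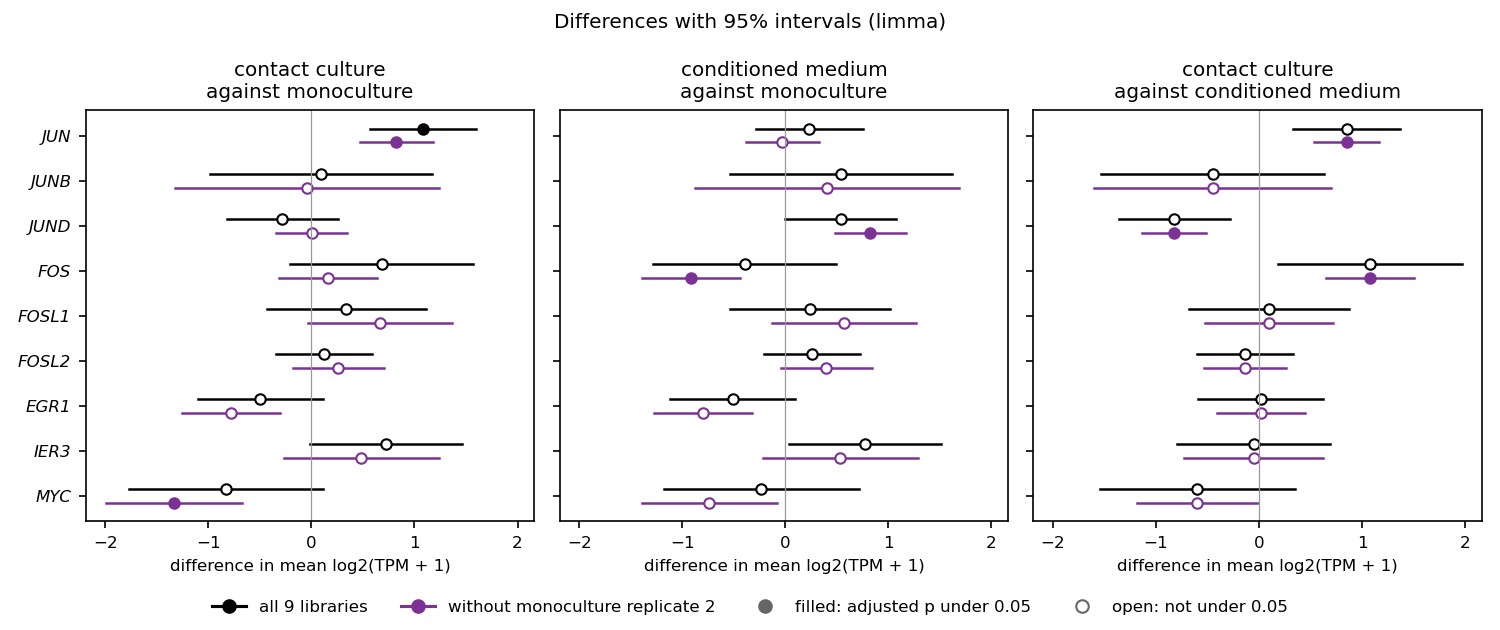
Difference in mean log2(TPM + 1) of the 9 tested members for contact culture against monoculture, conditioned medium against monoculture and contact culture against conditioned medium, with 95% intervals from limma, where black is the fit to all 9 libraries and purple the fit without monoculture replicate 2, and filled points have an adjusted p under 0.05. With all libraries JUN at 1.09 is the filled point, and without that library 7 points are filled.

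The partners and inhibitors of AP-1 gave 1 call. Of 17 such genes (ATF, BATF, MAF and CREB proteins that pair with or compete with JUN and FOS), 14 were tested, and 1 rose and 0 fell in contact culture against monoculture, with a median log2 fold change of −0.01 against −0.08 for all genes tested. Of all tested genes, 2.15% were called higher and 2.84% lower there. An unadjusted p under 0.05 was found for 2 of the 14 (2 higher and 0 lower) and for 3386 of the 16696 genes. The called gene was MAFG, a small MAF protein, at 37.6 ± 2.86, 18.7 ± 1.70 and 19.8 ± 4.21 TPM in contact culture, conditioned medium and monoculture (SD, n = 3 each). Its log2 fold change of 0.91 (adjusted p = 0.0227 from limma) was lost without any of the contact cultures or monoculture replicate 3, and when only these 2 groups were fitted (adjusted p up to 0.0877). In conditioned medium against monoculture, and in contact culture against conditioned medium, limma called 0 of the 14, with 1 and 2 at an unadjusted p under 0.05 and medians of −0.10 and −0.10, against −0.10 and 0.00 for all genes. Such a p was found for 2622 and 2045 of the 16696 genes. Without monoculture replicate 2, MAFF was also called lower in contact culture than in monoculture, and MAFG higher than in conditioned medium. Of all tested genes, 10.3% and 1.25% were then called in these comparisons.

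Among other immediate early genes NFKBIZ, PPP1R15A, SGK1 and TRIB1 rose in contact culture, as JUN did. Of 36 listed genes 27 were tested, and 4 rose and 0 fell in contact culture against monoculture, where 10 had an unadjusted p under 0.05 (9 higher and 1 lower), as had 3386 of the 16696 genes tested. Of all tested genes, 2.15% were called higher and 2.84% lower there. The median log2 fold change of the 27 was 0.36 against −0.08 for all genes tested. NFKBIZ, a nuclear regulator of NF-κB, was at 21.5 ± 1.43, 9.72 ± 2.32 and 2.58 ± 1.49 TPM in contact culture, conditioned medium and monoculture (SD, n = 3 each), and rose by 2.73 in contact culture (adjusted p = 0.0014 from limma), a call kept in each of the 19 alternatives.

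PPP1R15A, which resets protein synthesis after stress, was at 5.46 ± 0.459 TPM in contact culture, against 2.37 ± 0.232 in conditioned medium and 1.53 ± 0.529 in monoculture (SD, n = 3 each), and rose by 1.37 in contact culture (adjusted p = 0.0088 from limma). Only leaving out contact culture replicate 3 took this call away (0.0535). SGK1, a kinase induced by serum and glucocorticoids, was at 4.26 ± 0.950 TPM in contact culture, 1.48 ± 1.16 in conditioned medium and 0.739 ± 0.204 in monoculture. It rose by 1.59 in contact culture against monoculture (adjusted p = 0.0257 from limma). TRIB1, a pseudokinase, was at 4.41 ± 0.833 TPM in contact culture, 2.99 ± 0.593 in conditioned medium and 1.21 ± 0.863 in monoculture. It rose by 1.35 in contact culture against monoculture (adjusted p = 0.0315 from limma). Its conditioned medium libraries had 2.39 to 3.57 TPM, against 0.617 to 2.20 TPM in monoculture. The SGK1 call was lost without any of the contact cultures or monoculture replicates 1 or 3, with no filter, and with the replicate number as a block (up to 0.0942). The TRIB1 call was kept only without conditioned medium replicate 2 or monoculture replicate 2 among the 9 fits that left out a library. It was also lost with no filter, with only these groups in the fit and with the replicate number as a block (up to 0.119).

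Conditioned medium against monoculture gave a call for NFKBIZ alone of these 27 genes, with a rise of 1.64 (adjusted p = 0.0320 from limma). It was lost in 9 of 19 alternatives, among them those without any of the conditioned medium libraries, contact culture replicates 1 or 3, or monoculture replicate 1 (up to 0.148). The median of the 27 was 0.07 against −0.10 for all genes, of which 1.38% were called. An unadjusted p under 0.05 was found for 7 of the 27 (5 higher and 2 lower), TRIB1 among them, and for 2622 of the 16696 genes. Contact culture against conditioned medium gave 0 calls with limma, 9 genes at an unadjusted p under 0.05 (7 higher and 2 lower) and a median of 0.36 against 0.00 for all genes. Such a p was found there for 2045 of the 16696 genes. Without monoculture replicate 2, limma called 5 of the 27 higher and 1 lower in contact culture against monoculture, 2 higher and 3 lower in conditioned medium against monoculture, and 2 higher and 0 lower in contact culture against conditioned medium. Of all tested genes, 10.3%, 6.07% and 1.25% were then called in these comparisons.

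SRF, its partners and the co-repressors of EGR1 showed no call. Of SRF, its ternary complex partners and the EGR1 co-repressors NAB1 and NAB2, 8 genes in all, limma called 0 in each of the 3 comparisons, with 3, 0 and 0 at an unadjusted p under 0.05 in contact culture against monoculture, conditioned medium against monoculture and contact culture against conditioned medium. ELK3, the highest of them in the mean over the 9 libraries, was at 5.66 ± 1.07, 7.04 ± 1.84 and 9.17 ± 2.35 TPM in contact culture, conditioned medium and monoculture (SD, n = 3 each), and ELK1 was at 6.17 ± 2.76, 8.49 ± 2.18 and 6.80 ± 2.26 TPM. The medians of the 8 genes were −0.13, −0.10 and −0.24 in these comparisons, against −0.08, −0.10 and 0.00 for all genes. ELK3, MRTFB and NAB2, all lower in contact culture than in monoculture, were the 3 at an unadjusted p under 0.05. Such a p was found in that comparison for 3386 of the 16696 genes.

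Among genes known as AP-1 targets VEGFA and CD44 rose in contact culture, and the matrix proteases MMP1 and MMP3 and the chemokine gene CXCL8 were found almost only there. Of 23 listed genes 14 were tested, and limma called 5 higher and 0 lower in contact culture against monoculture. Of all tested genes, 2.15% were called higher and 2.84% lower there. An unadjusted p under 0.05 was found for 6 of the 14 (5 higher and 1 lower) and for 3386 of the 16696 genes. MMP1, MMP3 and CXCL8, which are among the 5 calls, reached the minimum level in contact culture alone, so their presence in the test already required a difference and they are given as levels only. MMP1, the interstitial collagenase, had 7.74, 4.02 and 6.50 TPM in contact culture, with 0.108 TPM in conditioned medium replicate 2, and was listed at 0 in the other conditioned medium libraries and in all monocultures. MMP3, or stromelysin, had 6.17, 4.48 and 3.32 TPM in contact culture and was listed at 0 in all other libraries. CXCL8, the neutrophil chemokine, had 1.80, 1.69 and 1.00 TPM in contact culture and was listed at 0 elsewhere. Like CAV1, these 3 genes were present in contact culture and at or near 0 in the other groups, and the part of HS5 RNA in them was not tested.

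VEGFA, the vascular growth factor, was detected in all libraries, at 20.4 ± 3.15 TPM in contact culture, against 11.5 ± 0.866 in conditioned medium and 6.31 ± 0.683 in monoculture (SD, n = 3 each), and rose by 1.55 in contact culture (adjusted p = 0.0015 from limma). CD44, the hyaluronan receptor, was at 85.4 ± 7.35 TPM in contact culture, against 56.0 ± 8.12 in conditioned medium and 43.7 ± 6.91 in monoculture (SD, n = 3 each) and rose by 0.96 in contact culture (adjusted p = 0.0171 from limma). The CD44 call was lost without contact culture replicates 2 or 3 or monoculture replicate 1, and with only these groups in the fit (up to 0.0826). The other 9 targets were not called, and the median of the 14, MMP1, MMP3 and CXCL8 included, was −0.03 against −0.08 for all genes. For conditioned medium against monoculture limma called 0 of the 14, with 4 at an unadjusted p under 0.05, 1 higher and 3 lower, and a median of −0.09 against −0.10 for all genes, and without monoculture replicate 2 CCND1 was lower. For contact culture against conditioned medium the calls were MMP1, MMP3 and CXCL8, which the same limit concerns. The CXCL8 call there was lost in 13 of 19 alternatives (adjusted p up to 0.185 from limma), and those of MMP1 and MMP3 in 0.

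The MYC network and its targets gave few calls. Of 12 tested partners and rivals of MYC, limma called 0 in each comparison, with 2, 0 and 2 at an unadjusted p under 0.05 in contact culture against monoculture, conditioned medium against monoculture and contact culture against conditioned medium. MAX, the obligate partner, was at 43.4 ± 1.33, 35.8 ± 3.39 and 43.7 ± 10.9 TPM in contact culture, conditioned medium and monoculture (SD, n = 3 each), and the rival MXD3 was at 34.1 to 40.2, 38.5 to 46.8 and 46.9 to 55.8 TPM. The medians of the 12 were −0.06, 0.01 and −0.18 in these comparisons, and without monoculture replicate 2 MXD4 was called higher in conditioned medium than in monoculture. All 41 listed MYC targets of ribosome building and growth were tested. The ribosome assembly gene MRTO4 was lower in contact culture than in monoculture, at 7.63 ± 1.64 TPM against 19.1 ± 3.56 TPM (a difference of −1.22, adjusted p = 0.0126 from limma), and 40 did not pass, with a median of −0.18 against −0.08 for all genes. An unadjusted p under 0.05 was found there for 9 of the 41 (1 higher and 8 lower) and for 3386 of the 16696 genes. Of all tested genes, 2.15% were called higher and 2.84% lower in that comparison.

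The MRTO4 call was lost without contact culture replicate 3 or monoculture replicates 1 or 3, and with only these groups in the fit (adjusted p up to 0.0720 from limma). In conditioned medium against monoculture the nucleolar gene NOP58 was lower, at 47.5 ± 10.4 TPM against 90.3 ± 10.1 TPM (a difference of −0.93, adjusted p = 0.0450 from limma), a call lost in 13 of 19 alternatives, all 3 scalings of the libraries among them. The median of the 41 was −0.17 there, against −0.10 for all genes. In that comparison 5 of the 41 had an unadjusted p under 0.05 (1 higher and 4 lower), as had 2622 of the 16696 genes. Of all tested genes, 0.707% were called higher and 0.677% lower there. Contact culture against conditioned medium gave 0 calls of 41 with limma, with a median of 0.03. An unadjusted p under 0.05 was found for 11, 7 higher and 4 lower, and for 2045 of the 16696 genes. Without monoculture replicate 2 the nucleolar gene NPM1 was called lower in conditioned medium than in monoculture as well, where 6.07% of all genes were then called.

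Heat shock genes were followed because handling stress is known to induce them together with early genes. Of 11 tested, the small chaperone gene HSPB1 was lower in contact culture, at 217 ± 35.3 TPM against 452 ± 36.7 TPM in monoculture (a difference of −1.06, adjusted p = 0.0161 from limma), and none was called higher. Of all tested genes, 2.15% were called higher and 2.84% lower there. An unadjusted p under 0.05 was found for 2 of the 11 (0 higher and 2 lower) and for 3386 of the 16696 genes. The HSPB1 call was lost without contact culture replicate 3 or monoculture replicates 1 or 3 (up to 0.0839). The inducible genes HSPA1A and HSPA1B were at 8.92 ± 4.72 and 35.3 ± 6.83 TPM in contact culture, against 8.75 ± 1.95 and 60.9 ± 27.0 TPM in monoculture (SD, n = 3 each). In conditioned medium against monoculture and contact culture against conditioned medium limma called 0 of the 11. In these, 2 and 1 of the 11 had an unadjusted p under 0.05, as had 2622 and 2045 of the 16696 genes. The medians of the 11 were −0.24 in contact culture against monoculture and −0.20 and −0.09 in these, against −0.08, −0.10 and 0.00 for all genes. Without monoculture replicate 2, DNAJA1 was also called lower in contact culture than in monoculture, and HSPB1 lower than in conditioned medium. Of all tested genes, 10.3% and 1.25% were then called in these comparisons. Whether bead recovery altered the early genes was not tested.

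**Figure D4:**
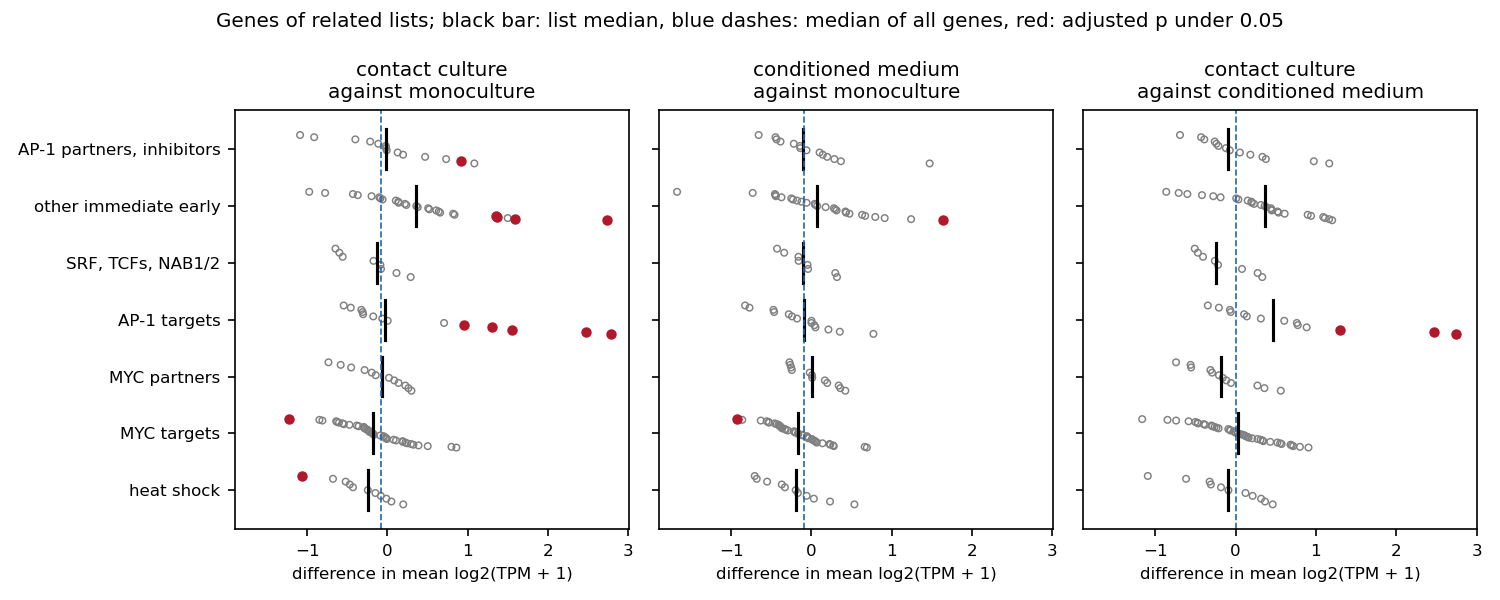
Difference in mean log2(TPM + 1) of each tested gene in 7 lists related to the early genes, for the 3 comparisons, with the list median as a black bar and the median of all genes as blue dashes. Red points (adjusted p under 0.05 from limma) lie to the right among other immediate early genes and AP-1 targets in contact culture against monoculture, with medians of 0.36 and −0.03, and the rightmost of the AP-1 targets, MMP1 and MMP3, are listed at 0 in monoculture, so their place depends on the pseudocount.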

How the data were processed

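Libraries of total RNA from T47D cells, made by the authors with a stranded kit, gave the 9 columns of the table. The read trimmer Trim Galore 0.5.0 and the aligner STAR 2.6.0 are the tools named in the submitters' processing notes. The sources used here name neither the genome build nor the annotation nor the program behind the gene values. The values deposited by the authors were taken to be on a natural log scale, ln(TPM + 1), since then libraries sum to 884208 to 909618 (120543 to 127236 if read as log2). Without read counts, counting error could not be given. Of 28624 rows, 160 named by RNA families were left out (up to 0.0770% of a library), and for 481 symbols that occupied several rows the TPM were added up.

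Values were returned to TPM, and log2(TPM + 1) of the 16696 genes with at least 0.5 TPM in at least 3 libraries was fitted with limma 3.58.1 in R 4.3.3, with 1 coefficient per condition, an intensity trend and robust empirical Bayes. Tests were 2-sided. The fit was tested on simulated data. Other steps and the figures used Python 3.11.15 (matplotlib 3.10.9, numpy 2.4.6 and pandas 2.3.3). The labels do not say that replicates were separate cultures, so p-values measure the spread between these libraries, which may be technical.

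The 10 genes, the gene lists and the tests were chosen with earlier results of these data known, so the lists are described by counts and medians only. From each list, the genes past the threshold were named (the 4 that changed most where more than 5 passed), or the 2 of highest level where none passed, and HSPA1A and HSPA1B were added. Named as most like a called member were the 3 genes of highest Pearson correlation with it, among genes averaging 1 or more on the log2 scale, of which 1 is not reported here. Positions come from GENCODE 29 by symbol and promoters from RefSeq, and neither is part of the authors' values. Alternatives were pseudocounts of 0.1 and 5, 3 other scalings, no filter and a filter at 1 TPM, the 2 groups alone, the replicate number as a block, the largest row of each symbol, a log2 fold change of at least 2 as well, and each library left out. Fits without a library kept the same genes.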

Additional observations from a re-analysis of the deposited data

How the results depend on the processing

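The main limits are 3 libraries a group, an unknown counting error and monoculture replicate 2. Over the fits that each left out a library, the number of all genes called ranged from 244 to 1727 for contact culture against monoculture, from 72 to 1013 for conditioned medium against monoculture and from 15 to 208 for contact culture against conditioned medium, and the number of early genes called from 0 to 2, 0 to 2 and 0 to 3. The highest counts came without monoculture replicate 2. With no filter 520, 125 and 28 genes were called in these comparisons, with only the groups compared 319, 111 and 97, and with a log2 fold change of at least 2 as well 131, 75 and 18. Each of these left 0 early genes called in contact culture against monoculture, where JUN was lost with no filter (adjusted p = 0.0580 from limma) and with only the groups compared (0.0843).

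No pairing by replicate number was seen: deviations of same-numbered libraries correlated at −0.0423 to 0.109 in 9 pairs, and those of other numbers at −0.119 to 0.138. With 3 libraries a group these values cannot exclude that same-numbered libraries were made together. With the replicate block 509, 102 and 22 genes were called, and 0 early genes in contact culture against monoculture (JUN log2 fold change 1.09, adjusted p = 0.0722 from limma).

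Relative log expression scaling moved the median of all genes by 0.102 in conditioned medium against monoculture, and the split of calls became 440 higher to 301 lower (359 to 474 as reported) in contact culture against monoculture and 146 to 53 (118 to 113) in conditioned medium against monoculture. Upper quartile scaling gave 428 to 341 and 123 to 61, and rescaling without mitochondrial and ribosomal RNA 422 to 310 and 121 to 71, and 40 to 19 (35 to 27) in contact culture against conditioned medium. No scaling turned a difference of an early gene round. Among the values of early genes under the alternatives, 479 kept their direction and their side of the threshold, 6 came past it, 9 dropped back and 13 turned round, none of them called.

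In contact culture against monoculture the values that turned were those of FOSL2 (−0.011 to 0.26 over the fits without a library), JUNB (−0.30 to 0.48, and −0.10 with a pseudocount of 0.1) and JUND (−0.50 to 0.0011). In conditioned medium against monoculture they were JUN (−0.027 to 0.37) and MYC (−0.74 to 0.078). In contact culture against conditioned medium they were FOSL1 (−0.087 to 0.32), EGR1 (−0.049 to 0.064) and IER3 (−0.25 to 0.20, and 0.21 with the largest row). The causes were not tested.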
